A study of Mus musculus with 6 samples.

Results

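Adipocyte genes were described in taste cells isolated from the mouse tongue, taken from its circumvallate (CV) and foliate (Fol) papillae, where many of its taste buds lie. The 10 genes were chosen by name as genes of the fat cell (Fabp4, Adipoq, Plin1, Plin4, Cfd, Cidec, Lpl, Pparg, Retn and Lep), with their values at both ages already known, and all 10 were among the 23361 genes of the deposited table. The labels name C57BL/6 mice and no treatment of them, and the groups differed in age only, 2 or 6 months, although the design text of the series also names 3 months in one place. Each age had 3 libraries, and a library held cells pooled from 4 mice at 2 months and from 3 mice at 6 months. The table gives 1 value per gene and age, in FPKM (fragments scaled by transcript length and by the mapped reads of a library), which is the authors' value over the 3 libraries of that age. No library has a value of its own here, so values carry no SD, no test between the ages was made, and every difference below is a description. Sequencing depth is unknown, since FPKM does not carry it.

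Fat cells store triglyceride in a lipid droplet. Lipoprotein lipase (Lpl) frees fatty acids from lipoproteins outside the cell, the binding protein Fabp4 carries them inside it, the perilipins (Plin1 and Plin4) and Cidec sit on the droplet, and Pparg is the nuclear receptor that drives the fat cell programme. Adiponectin (Adipoq), leptin (Lep), resistin (Retn) and adipsin (Cfd, complement factor D) are secreted. Several of these genes are not restricted to fat: Fabp4 is also made by capillary endothelium and macrophages, Lpl by muscle and macrophages, and Pparg by macrophages, sebaceous cells and other epithelia. Fat lies between the muscle fibres of the tongue, beneath the epithelium from which taste cells are taken.

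The genes most particular to the fat cell had values near 0 at both ages, and the level in the table was carried by 3 of the 10. Genes were called expressed where the mean of both ages was 1 FPKM or more, which held for Pparg, Fabp4 and Lpl, that is 3 of 10, and for 54.2% of all genes. The other 7 had means between 0.00991 FPKM (Plin1) and 0.102 FPKM (Cfd). Fabp4 was 5.03 times as high at 6 months as at 2 months, and it was the only member whose value differed by at least 1.5-fold between the ages on the log2(FPKM + 1) scale. Summed over the 10 genes, the level was 5.84 FPKM at 2 and 8.12 FPKM at 6 months. Without Fabp4 the sum was 5.15 FPKM at 2 and 4.63 FPKM at 6 months.

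**Figure D1:**
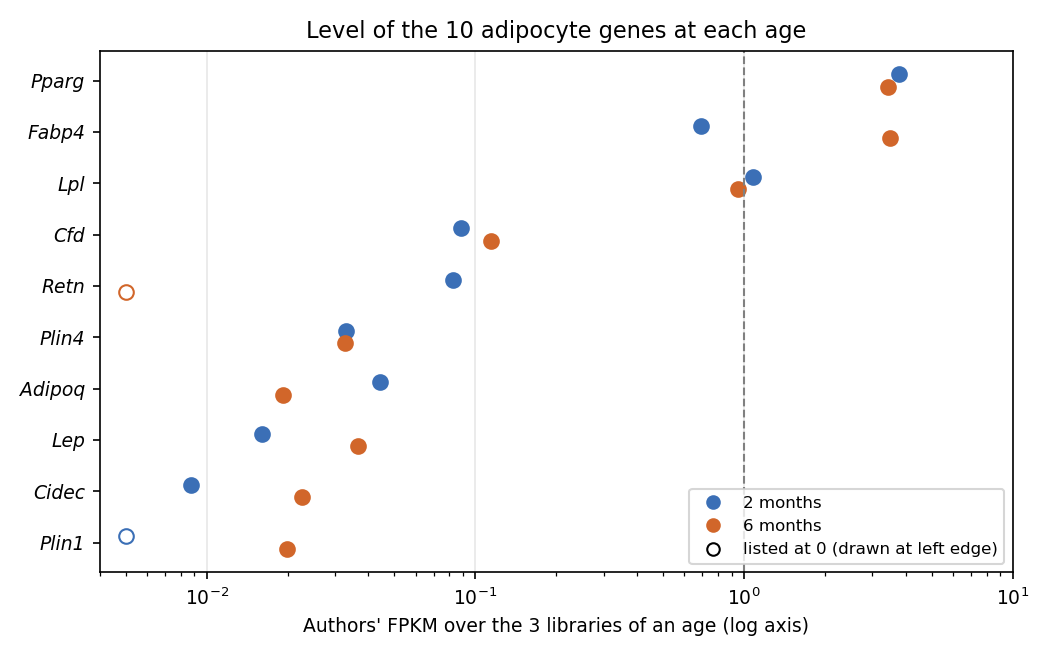
The authors' FPKM value of each adipocyte gene at 2 months (blue) and 6 months (orange) is drawn on a log axis, with open circles for values listed at 0 and a dashed line at 1 FPKM. Fabp4 lies at 0.692 FPKM at 2 months and at 3.48 FPKM at 6 months, and 7 of the 10 genes lie at or below 0.114 FPKM at both ages.

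Differences between the ages were taken on the log2(FPKM + 1) scale, 2 months subtracted from 6 months, which understates the difference of genes with low values. By sign alone, 5 of the 10 members were higher at 6 months and 5 were lower, beside 38.5% of all 23361 genes that were higher and a large number listed at 0 in both ages (4483). The median difference over the members was 0.01, and over all genes it was 0.00. A difference of at least 2-fold upward on this scale was seen for 1 of the 10 members, Fabp4, and for 0.308% of all genes. With the lower bar of 1.5-fold upward the members' count was also 1, Fabp4, which is 1 of the 3 expressed members. Of the expressed genes alone, 1.05% passed this lower bar. Since the members were chosen with these values known, nothing is read from either count.

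Fabp4, which lies on chromosome 3 of GRCm38 from 10204342 to 10208616, had 0.692 FPKM at 2 and 3.48 FPKM at 6 months. Its difference was 1.41 on the log2(FPKM + 1) scale and 2.18 with a pseudocount of 0.1 FPKM in place of 1. Of the 12652 expressed genes, 71 (0.561%) were at least 2-fold higher at 6 months, but 60 of these 71 were microRNA, small nucleolar RNA and other small RNA genes. Among the 12428 expressed genes that are not small RNA genes, 11 (0.0885%) were at least 2-fold higher, and Fabp4 had the ninth largest difference upward. Among genes of this kind whose mean was within 1.5-fold of that of Fabp4, from 1.39 to 3.13 FPKM, 2 of 1638 (0.122%) were at least 2-fold higher. The setting apart of small RNA genes was chosen after the data had been seen. Fabp4 passed the bar of 1 FPKM on the mean only through its 6 month value, 3.48 FPKM. It is itself counted in each of these shares, so they and its rank only describe its value and test nothing. Whether the difference of Fabp4 came from each of the 3 libraries at 6 months or from 1 of them cannot be read from this table. In pooled cells, more cells that express a gene and more RNA of it per cell cannot be told apart.

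**Figure D2:**
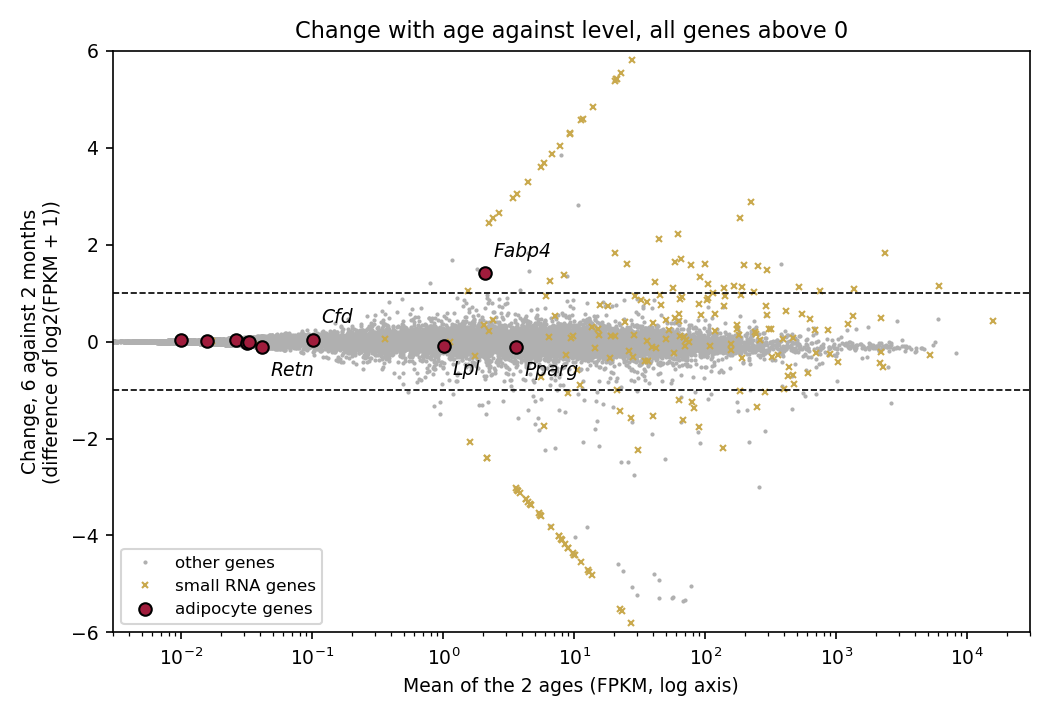
The difference between the ages on the log2(FPKM + 1) scale is plotted against the mean of both ages in FPKM (log axis) for all genes above 0, with small RNA genes as crosses, adipocyte genes as large points and dashed lines at 2-fold. Fabp4 stands at 1.41, above the upper line, while the other 9 adipocyte genes lie between -0.11 and 0.03. Outside the drawn range are 25 genes by their difference and 110 by a low mean.

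The value of Fabp4 was set beside those of its relatives, because Fabp5, the epidermal fatty acid binding protein and the gene of its family with the highest level, lies on the same chromosome at 10012585 to 10016610 and had 2457 FPKM at 2 and 3316 FPKM at 6 months. The mean of Fabp5 was 1383 times that of Fabp4, and the placing of Fabp5 reads on Fabp4 was not tested, since the table holds no reads. The coding sequences of both genes, from GENCODE transcripts of GRCm38, have 132 and 135 codons and 4 exons each, and 61.9% of the 396 aligned coding bases were identical. The stretch below is the one around their longest shared run in the coding sequence, with the bases that differ between them in capitals. It covers coding bases 65 to 154 of Fabp4 (minus strand, chr3:10208439-10208447 in exon 1 and chr3:10206042-10206122 in exon 2) and 71 to 160 of Fabp5 (plus strand, chr3:10012710-10012718 in exon 1 and chr3:10014971-10015051 in exon 2).
Fabp4: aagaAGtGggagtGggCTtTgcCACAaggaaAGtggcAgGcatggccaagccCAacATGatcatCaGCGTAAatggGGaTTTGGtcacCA
Fabp5: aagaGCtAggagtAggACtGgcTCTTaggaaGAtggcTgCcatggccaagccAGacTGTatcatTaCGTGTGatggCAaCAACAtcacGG

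Of these 90 positions 36 differed, and the longest run shared by the spliced transcripts of Fabp4 and Fabp5 was 12 bases. The longest run that Fabp4 shared with another tested relative was 23 bases, with Pmp2, which was listed at 0 at both ages. Of the 847 windows of 50 bases in the Fabp4 transcript, 0 occurred in a transcript of another gene, on either strand. The level of Fabp4 was 0.0282% of that of Fabp5 at 2 months and 0.105% at 6 months. Fabp5 itself had a difference of 0.43 on the log2(FPKM + 1) scale. The heart-type gene Fabp3 had 0.637 and 1.03 FPKM at 2 and 6 months, with a difference of 0.31, and Fabp6, the ileal gene, had 26.4 and 27.4 FPKM. Of the genes of the family next to Fabp4 on its strand, Fabp9 was listed at 0 at both ages, and Fabp12 had 0.0834 and 0.134 FPKM.

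**Figure D3:**
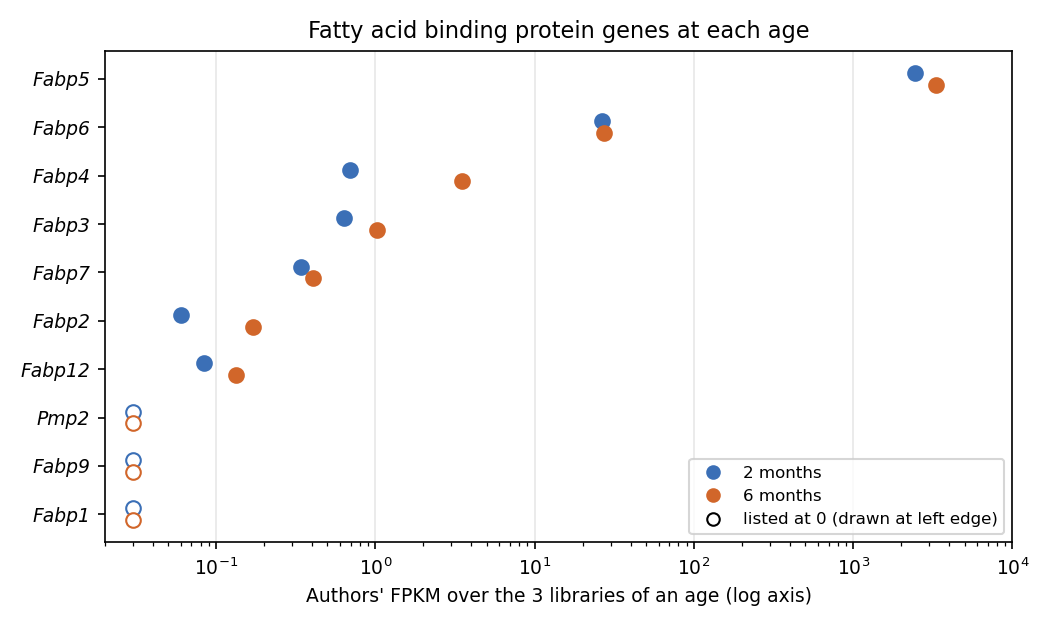
The authors' FPKM values of 10 genes of the fatty acid binding protein family (Pmp2 included) are drawn at 2 months (blue) and 6 months (orange) on a log axis, with open circles for values listed at 0. Fabp5 lies farthest to the right, and the gap between the ages is widest for Fabp4, at 0.692 and 3.48 FPKM.

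Lpl and Pparg, the other expressed members, were slightly lower at 6 months. Lpl (chromosome 8, 68880555 to 68906932) had 1.08 FPKM at 2 and 0.954 FPKM at 6 months, a difference of -0.09 on the log2(FPKM + 1) scale. Pparg (chromosome 6, 115360879 to 115490404) had 3.79 FPKM at 2 and 3.44 FPKM at 6 months, a difference of -0.11. Thus, at 2 months the level of Pparg was above those of Lpl and Fabp4, in that order, and at 6 months Fabp4 and Pparg had nearly the same level. Of the expressed genes 46.3% were higher at 6 months, and 1 of these 3 members was. The span of an antisense gene, Gm44079, overlaps that of Pparg in the GENCODE annotation, and whether their exons overlap was not examined. The libraries came from the TruSeq RNA kit and were mapped by TopHat with its defaults, neither of which keeps strand. Reads from any exon bases that the pair shares therefore cannot be told apart. Of the windows of 50 bases in Lpl, 1.81% also occur in transcripts of other genes.

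The droplet proteins were near the lowest values of the table. Plin1, the perilipin that guards the droplet against lipases, was listed at 0 at 2 months and had 0.0198 FPKM at 6 months. Plin4, a second perilipin of the fat cell droplet, had 0.0330 FPKM at 2 and 0.0328 FPKM at 6 months. Cidec, which enlarges droplets by lipid transfer between them, had 0.00872 FPKM at 2 and 0.0227 FPKM at 6 months. Neither Plin1 nor Cidec reached 0.03 FPKM at the age at which it was higher. The span of Plin4 overlaps that of Hdgfl2, a gene of the opposite strand, and overlap of their exons was not examined. The small difference of Plin4, -0.000246, changes sign when the 6 month values are scaled to the same upper quartile, median or sum as at 2 months.

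The secreted products were also low, with means up to 0.102 FPKM, that of Cfd. Adipoq had 0.0444 FPKM at 2 and 0.0192 FPKM at 6 months. Lep had 0.0161 FPKM at 2 and 0.0366 FPKM at 6 months. Adiponectin and leptin, the hormones most particular to fat cells, thus had opposite signs and stayed under 0.05 FPKM. Retn, the gene of resistin, had 0.0823 FPKM at 2 months and was listed at 0 at 6 months. Cfd, a serine protease of the complement system, had 0.0888 FPKM at 2 and 0.114 FPKM at 6 months, and it was the highest of these 4 at each age.

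As a group, the 7 low members had a summed level of 0.273 FPKM at 2 and 0.245 FPKM at 6 months. Of these 7, 4 were higher at 6 months, beside 38.5% of all genes, and 3 were lower. That share counts the 4483 genes listed at 0 in both ages, and none of the 7 was, so nothing is read from it. Their differences ran from -0.11 to 0.03 on the log2(FPKM + 1) scale and from -0.87 to 0.26 with a pseudocount of 0.1 FPKM. At this level values vary widely from one age to the other throughout the table. Of the 3047 genes with a mean above 0 and no higher than that of Cfd, 33.7% were listed at 0 in one of the ages, as Plin1 and Retn were, and of the 2019 above 0 in both, 34.1% differed by at least 2-fold in FPKM, as Adipoq, Cidec and Lep did. An exact 0 in such a table can also be an estimate that failed. Olfactory receptor genes, most of which were listed at 0, were set beside them: 62 of 1117 had a value above 0, with a median mean of 0.0135 FPKM and an upper quartile of 0.0671 FPKM. All 7 low members had a mean above 0, all but Plin1 were above that median, and all but Cfd were under that upper quartile.

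The sequence before the start of each gene was described as a feature that the choice of genes did not use. RefSeq windows of 300 bases (250 before and 50 after a start, GRCm38.p6) were at hand for 8 of the 10 members, with 11 starts, and for neither Fabp4 nor Lpl. The ratio of observed to expected CG dinucleotides was at least 0.6 in 1 of these 11 windows, that of the most upstream listed start of Pparg with 44 CG dinucleotides and a ratio of 0.909, and in 35.8% of all 32851 windows. Lep, with 19 CG dinucleotides and a ratio of 0.590, fell just under this bar, and the middle listed start of Pparg had a ratio of 0.467. Both were above the median of all windows, 0.384. The most downstream listed start of Pparg had 2 CG dinucleotides in its window and Adipoq had 0. These 2 windows are given as the 250 bases before the start, with CG in capitals, because they stand for the CG-poor starts most of the members have; they lie at chr6:115421816-115422065 and chr16:23146286-23146535, both on the plus strand. The table has a value per gene, so which start of Pparg was used cannot be read from it.
Pparg: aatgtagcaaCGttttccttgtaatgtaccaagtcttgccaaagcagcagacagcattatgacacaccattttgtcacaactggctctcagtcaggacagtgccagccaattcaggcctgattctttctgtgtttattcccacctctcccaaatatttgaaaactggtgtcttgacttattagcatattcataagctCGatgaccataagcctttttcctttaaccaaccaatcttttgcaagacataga
Adipoq: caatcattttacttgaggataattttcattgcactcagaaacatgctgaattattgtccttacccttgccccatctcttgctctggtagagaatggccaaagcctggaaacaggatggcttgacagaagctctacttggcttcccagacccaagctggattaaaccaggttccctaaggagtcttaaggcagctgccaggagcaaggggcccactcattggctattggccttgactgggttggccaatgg

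Further genes of fat metabolism came from 7 lists of 87 genes that the choice of members did not include. Of 85 in the table, 53 were expressed, beside 54.2% of all genes. Of these 53, 23 were higher at 6 months, beside 46.3% of all expressed genes, and 30 were lower. The median difference of the 53 was -0.06 on the log2(FPKM + 1) scale, beside -0.01 over all expressed genes. On this scale none of the 53 was at least 2-fold higher, and 1 was at least 2-fold lower, beside 1.04% of all expressed genes. That gene was Cidea, a relative of Cidec that acts on droplets in brown fat and sebaceous cells. Cidea had 3.48 FPKM at 2 and 0.879 FPKM at 6 months, a difference of -1.25, and passed the bar of 1 FPKM on the mean only through its 2 month value. In FPKM itself, Orm1 was 2.23 times as high at 6 months as at 2 months, and it passed that bar only through its 6 month value.

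Among other droplet genes, the perilipin of most cell types, Plin2, had 39.7 and 42.4 FPKM at 2 and 6 months, far above the perilipin genes of the fat cell, Plin1 and Plin4. Fitm2, which helps droplets to form, had the largest upward difference of this list, 0.30. For triglyceride breakdown, Lipe (hormone-sensitive lipase) had 9.34 and 7.12 FPKM, a difference of -0.35, and Abhd5, an activator of lipolysis, had 29.4 and 30.2 FPKM. For triglyceride synthesis, Dgat2, which adds the last fatty acid, had 87.8 and 80.9 FPKM, Gpam, which adds the first, had a difference of 0.09, and the insulin-regulated glucose transporter Slc2a4 had one of -0.29.

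Partners of Lpl and Pparg differed little between the ages. Lmf1, which matures the lipase, had 9.75 and 8.18 FPKM at 2 and 6 months, a difference of -0.23. Gpihbp1, which holds the lipase on capillaries, had 0.0441 and 0.0334 FPKM, and the fatty acid transporter Cd36 had 0.542 and 0.521 FPKM (both named after their values were seen). Rxra, the partner that binds DNA with Pparg, had 44.6 and 48.1 FPKM. Of the other expressed factors, Ppara, a relative of Pparg, had the largest upward difference with 1.15 and 1.74 FPKM, or 0.35, and Cebpd the lowest at -0.13. Of the 9 expressed factors, 6 were higher and 3 lower, beside 46.3% of all expressed genes that were higher.

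Receptor genes for the fat hormones covered a wide range of levels. The adiponectin receptor genes Adipor1 and Adipor2 had 105.0 and 94.8 FPKM (Adipor1) and 38.8 and 34.8 FPKM (Adipor2), and the difference of Adipor2, -0.16, was the lowest among the expressed genes of this list. Cap1, an actin regulator that has been described as a resistin receptor, had 162.1 and 157.8 FPKM. The leptin receptor gene Lepr was at 0.336 and 0.440 FPKM (named after its values were seen), and Nampt, the enzyme also known as visfatin, had 14.0 and 15.5 FPKM, a difference of 0.14.

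A last list held genes known as high in fat cells, and 8 of its 15 genes in the table were expressed, beside 54.2% of all genes. Of these 8, 1 was higher and 7 were lower at 6 months, beside 46.3% of all expressed genes that were higher. Of the 15 genes, 4 had a mean under 0.1 FPKM, beside 32.2% of all genes with a mean below that of Cfd, 0.102 FPKM. These 4 were Aoc3, Acvr1c, Tusc5 and Slc7a10 (named after their values were seen). The highest of the list was the carboxylesterase gene Ces1d, with 515.9 and 458.5 FPKM at 2 and 6 months. Lgals12, a galectin of the lipid droplet, had 5.14 and 3.90 FPKM, the lowest difference at -0.32. The only expressed one that was higher was Orm1, an acute phase protein, with 0.970 and 2.16 FPKM, a difference of 0.68. Orm1 passed the bar of 1 FPKM on the mean only through its 6 month value.

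Genes of other cell types that can express Fabp4, Lpl or Pparg were set beside them. Taste cells, the labelled type, had 15 of 16 marker genes expressed, beside 54.2% of all genes, with a median mean of 12.8 FPKM over the list. Krt8 was the highest at 234.3 and 196.7 FPKM, and Tas1r3 had the largest upward difference, 0.47. Of 15 endothelial genes, 9 had a mean under 0.1 FPKM and 2 were listed at 0 at both ages. Of all 23361 genes, 32.2% had a mean below that of Cfd, 0.102 FPKM, and 4483 were listed at 0 at both ages. The summed level of the endothelial genes was 7.15 FPKM at 2 and 6.57 FPKM at 6 months. Most of that sum was Vwf, with 3.94 and 3.34 FPKM, and Tek, with 1.57 and 1.55 FPKM, while the junction gene Cdh5 had 0.0323 and 0.0951 FPKM (named after its values were seen). Of the 12 macrophage genes, 7 were expressed, beside 54.2% of all genes, and all 12 had a mean above 0.1 FPKM. Those under 1 FPKM were Emr1, Mrc1, Cd163, Fcgr1 and Cx3cr1 (named after their values were seen). Their means ran from 0.170 FPKM (Mrc1) to 0.985 FPKM (Cx3cr1). Of the 12, 6 were higher at 6 months and 6 were lower. The share of all genes that were higher, 38.5%, counts the 4483 listed at 0 at both ages, and none of the 12 was. Of the 7 expressed ones, 3 were higher, beside 46.3% of all expressed genes, and 4 were lower. The summed level of the 12 was 345.1 FPKM at 2 and 302.3 FPKM at 6 months, and most of that was Lyz2, with 293.3 and 253.7 FPKM. Csf1r, the receptor macrophages need to survive, had 2.56 and 3.13 FPKM, a difference of 0.22, and Cd68, a lysosomal protein, had one of -0.44.

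The skeletal muscle list stood higher at 6 months, as Fabp4 did. Its summed level was 27.0 FPKM at 2 and 41.0 FPKM at 6 months, and 14 of 15 genes were higher, among them all 8 expressed ones, where the median difference was 0.72, beside 38.5% of all genes and 46.3% of the expressed genes that were higher. Tnnc2, the fast troponin C, had 2.14 and 5.57 FPKM, a difference of 1.07, and Tnni2, fast troponin I and the highest of the list, had 11.2 and 11.9 FPKM, a difference of 0.08. Of the 3 expressed genes of the brown fat list, 2 were higher, beside 46.3% of all expressed genes, and 1 was lower. Cox8b, a respiratory chain subunit of muscle, heart and brown fat, had 1.15 and 3.18 FPKM. Its difference of 0.96 was the largest upward one of that list. Otop1, the highest of that list, had 14.4 and 12.2 FPKM, and its difference was the lowest at -0.22. The defining brown fat gene Ucp1 was at 0.0577 and 0.0373 FPKM (named after its values were seen). Lpl, which muscle also makes, was 0.880 times as high at 6 months as at 2 months. The part of muscle, or of cells that lie within it, in the value of Fabp4 was not tested.

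Precursors of fat cells, sebaceous cells and lingual glands did not share 1 direction. Dcn, a matrix proteoglycan of fibroblasts, had 42.0 and 27.3 FPKM at 2 and 6 months, a difference of -0.60, Ly6a (Sca1) had 129.3 and 111.8 FPKM, and Dpp4 had a difference of 0.11. These 3 were high for the precursor list, whose median mean was 0.256 FPKM. Of its 10 genes, 3 had a mean under 0.1 FPKM, beside 32.2% of all genes with a mean below that of Cfd, 0.102 FPKM. These 3 were Dlk1, Col1a1 and Col3a1 (named after their values were seen). In the precursor list 1 of 4 expressed genes was higher, beside 46.3% of all expressed genes. In the sebaceous list 3 of 5 were higher, and 2 of its 10 genes were listed at 0 at both ages, beside 4483 of all 23361 genes. Its lowest difference was that of Cidea, -1.25, and its highest that of Krt79, a keratin of hair follicle and gland ducts, with 24.8 and 41.8 FPKM and a difference of 0.73. In the gland list 6 of 7 were lower, with Lipf, the gastric lipase of the lingual glands, at 83.7 and 14.7 FPKM, a difference of -2.43, and Dcpp2, a secreted gland protein, at 0.80.

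**Figure D4:**
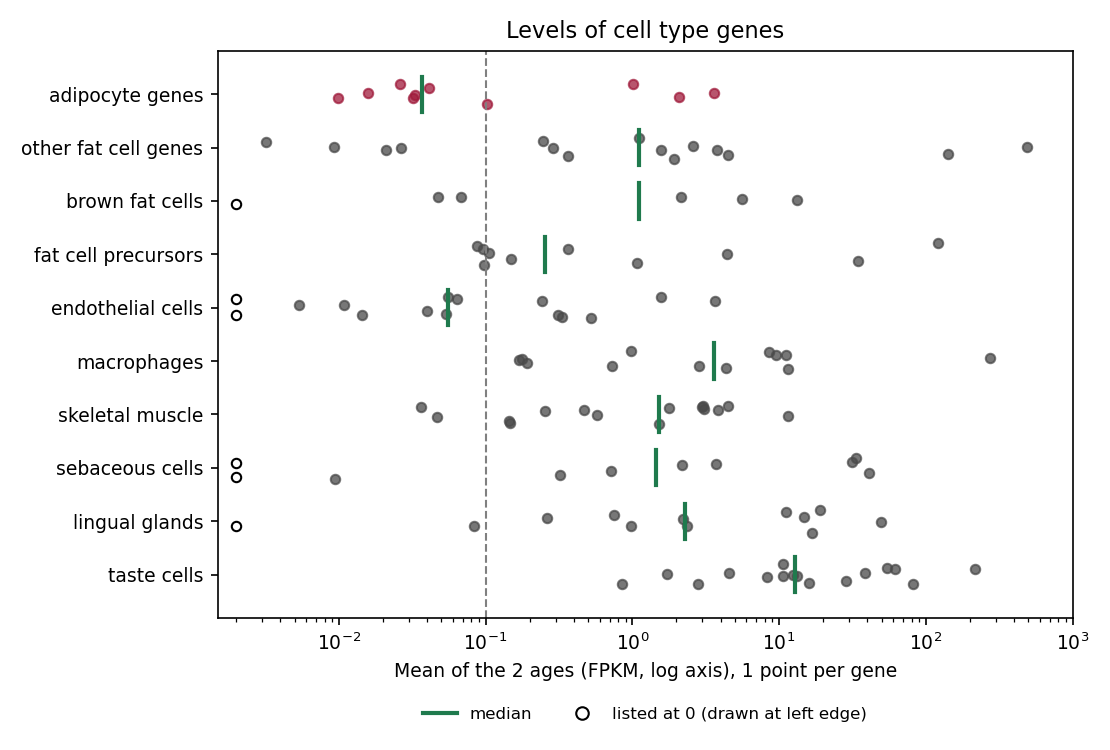
Each point is the mean of both ages in FPKM (log axis) of 1 gene, for the adipocyte genes and for 9 further lists, with a green bar at the median of a list and a dashed line at 0.1 FPKM. The adipocyte genes have a median of 0.0370 FPKM and the endothelial genes of 0.0557 FPKM, below those of the other 8 lists, and the taste cell genes have the highest median, 12.8 FPKM.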

How the data were processed

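RNA of isolated CV/Fol taste cells was extracted from 6 pools of mice, polyA selected and sequenced. The authors mapped reads to GRCm38/mm10 with TopHat2 2.0.7, then used Cufflinks 2.1.1 and Cuffdiff with RefSeq gene models. The authors deposited 1 FPKM value per gene and age, and the library normalization is not given in the sources used here. The columns are named B and S, letters that the titles of the 6 and 2 month samples carry. The table also holds p-values of the authors' own comparison, which were not used. Differences were taken on the log2(FPKM + 1) scale, and with 1 value per age no test was made. The members, lists and call rules (2-fold, and expressed at a mean of 1 FPKM or more) were chosen with earlier results of these data known. Named genes are the members and, per list, the highest and lowest difference among expressed genes and the highest mean, unless the text says otherwise. Coordinates of genes came from RefSeq GRCm38.p6, and exons and transcripts from GENCODE M21. Fabp4 and Fabp5 were aligned with Biopython 1.88. Counting was tested on simulated data. Scripts ran in Python 3.11.15 with pandas 2.3.3, numpy 2.4.6 and matplotlib 3.10.9.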

Additional observations from a re-analysis of the deposited data

How the results depend on the processing

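No paired analysis was possible because each age has 1 value per gene, and for the same reason no replicate was left out. The number of members at least 2-fold higher was 1, and it was 2 with a pseudocount of 0.01 FPKM, where Plin1, listed at 0 at 2 months, was added, and 0 under a filter of 5 FPKM on the mean, which no member reached. The median difference of the members was 0.01, and -0.0929 over the 3 expressed members. The median over the further fat genes, -0.06, was 0.00 without a filter and 0.01 with the filter of 5 FPKM. The number of members higher was 6 in place of 5 when the 6 month values were scaled to the same upper quartile, median or sum (the sum, and the median for single members, were chosen after the data were seen). The member that changed sign was Plin4, to 0.000447, 0.000367 and 0.00177. No other member changed sign under a scaling or with a pseudocount of 0.1 FPKM. A move under 0.1 on the log2 scale was counted as no change, since no spread between replicates was at hand. Fabp4 ranged from 1.41 to 1.45 over the scalings. Without a value per library, differences of the 7 members near 0 cannot be told from the scatter of such values.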
